A study of Mus musculus with 4 samples.

Results

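The 8 genes described here belong to the apoptosome, the protein platform on which the intrinsic pathway of apoptosis activates its caspases, or to the caspases and caspase regulators around it: Apaf1, Cycs, Casp9, Casp2, Casp6, Xiap, Diablo and Htra2. They were taken by name from the 56748 genes of the deposited count table, and each name had 1 row. The RNA came from whole small intestine (SI) of p53+/+ mice (labelled WT) and p53-/- mice, 2 libraries each, collected 1 day post 12 Gy total-body irradiation (TBI) from a Cs-137 source. According to the methods of the study, the mice were 8 to 12 weeks old, age- and gender-matched, and both strains came from the Jackson Laboratory. All 4 libraries are from irradiated mice, and unirradiated mice were not analysed here. The comparison therefore asks how the genotypes differed after TBI and not what TBI changed. The p53-/- mice lack p53 in every cell, in the epithelium and in immune cells alike.

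When mitochondria of a damaged cell are permeabilized by BAX and BAK, cytochrome c leaves the space between their membranes and binds APAF1. APAF1 then assembles into the wheel-shaped apoptosome, which recruits and activates caspase-9, and caspase-9 in turn cleaves the executioner caspases. XIAP binds and inhibits caspases, and DIABLO (also called SMAC) and HTRA2, released from the same space, displace XIAP from them. In the irradiated intestine this pathway is known for the early p53-dependent death of crypt cells, and BAX and PUMA, which act upstream of cytochrome c, are textbook products of p53 target genes. Of the 8 genes only Casp6 encodes an executioner caspase. Casp9 and Casp2 encode initiator caspases.

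The 4 libraries held between 15005479 and 22173164 counts. The column names give the genotype and a number from 7 to 10, used here as the name of the library. The Trp53 gene itself was at 57.7 and 47.1 CPM in p53+/+ libraries 7 and 8 and at 19.8 and 22.5 CPM in p53-/- libraries 9 and 10, a log2 fold change of -1.31. It was lower in both p53-/- libraries and did not reach 0. CPM are counts scaled to a common library size, here by TMM, which sets the libraries to each other on the bulk of their genes. The ribosomal RNA gene Rn18s-rs5 took 0.296%, 0.473% and 0.863% of the counts in libraries 7, 8 and 9 and 4.59% in library 10.

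None of the 8 genes differed between the genotypes past the threshold, an adjusted p under 0.05 in the quasi-likelihood test of edgeR, adjusted by Benjamini-Hochberg over the 16094 genes tested. All 8 had enough counts to be tested. Trp53, the gene that is knocked out, had an adjusted p of 0.0602 in the same edgeR test and was not past the threshold either. Of all genes tested, 0.491% were past this threshold (48 higher and 31 lower in p53-/- SI), so 0 of 8 lies near the background. No member had an unadjusted p under 0.05 either, while 2892 of all genes (18%) did. DESeq2 and edgeR's likelihood ratio test, which called 8.93% and 8.05% of all genes, gave 0 members at an adjusted p under 0.05 and 0 at an unadjusted p under 0.05. The log2 fold changes of the 8 genes, p53-/- over p53+/+, lay between -0.26 and 0.36, with a median of 0.02 beside -0.01 for all genes tested. All 8 lay inside the middle quartiles of all genes, from -0.33 to 0.39. In 4 of the 8 both p53-/- libraries were above both p53+/+ libraries, which was so for 26.4% of all genes tested. In 1 of the 8 both were below, which was so for 24.4% of all genes, and in the other 3 the genotypes overlapped. With RNA of whole tissue, fewer cells that express a gene and less RNA per cell cannot be told apart.

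**Figure D1:**
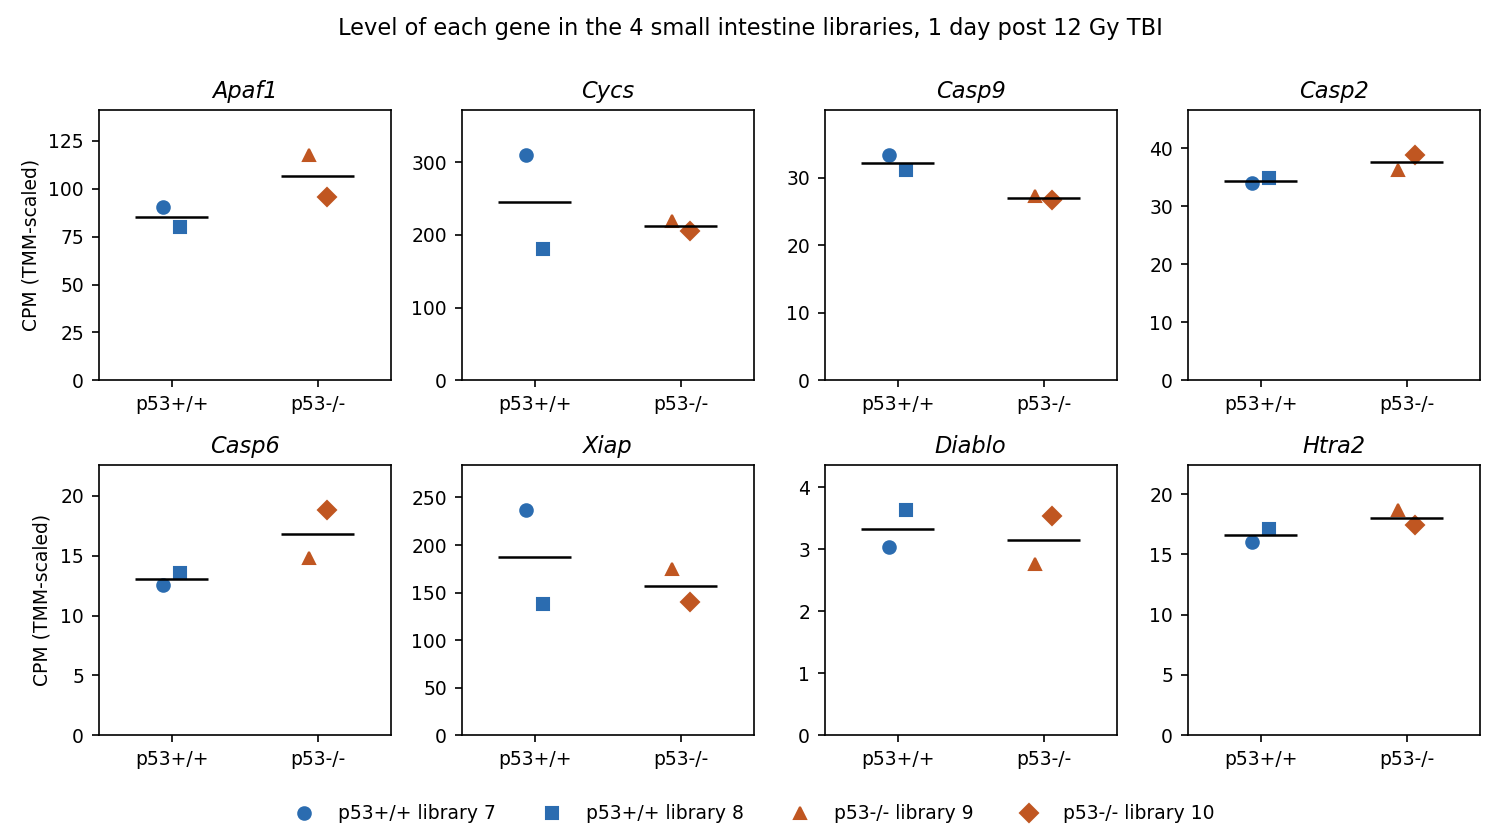
CPM of each of the 8 genes (vertical axis, from 0, a scale of its own in each panel) in the 2 p53+/+ and the 2 p53-/- libraries. Each point is 1 library and the bar is the mean of a genotype. Apaf1, Casp2, Casp6 and Htra2 were a little higher in both p53-/- libraries, Casp9 was a little lower, and the genotypes overlapped for Cycs, Xiap and Diablo.

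The scaffold gene Apaf1 (ENSMUSG00000019979) was at 90.4 and 80.0 CPM in p53+/+ SI and at 117.5 and 95.9 CPM in p53-/- SI. Both p53-/- libraries were above both p53+/+ libraries. The gap between library 10 and library 7 was smaller than the difference between the 2 p53-/- libraries. The means were 85.2 ± 7.32 and 106.7 ± 15.2 CPM (SD, n = 2), and the log2 fold change was 0.32 (adjusted p = 0.424 in this edgeR test, standard error 0.181). The 95% interval of the fold reached from 0.914 to 1.72. Without p53-/- library 9 the log2 fold change was 0.17, and without p53-/- library 10 it was 0.52.

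Cycs (ENSMUSG00000063694) encodes the somatic cytochrome c, a carrier of the respiratory chain that triggers the apoptosome once it is in the cytosol. It was at 309.5 and 180 CPM in p53+/+ SI and at 219 and 206 CPM in p53-/- SI. The p53-/- libraries lay between the 2 p53+/+ libraries, which differed 1.72-fold from each other. For the median gene this difference was 1.26-fold, and that of Cycs stood at the 80.8th percentile. The log2 fold change of -0.21 (adjusted p = 0.780 in this edgeR test, standard error 0.292) had an interval of the fold from 0.521 to 1.44. Without p53+/+ library 7 it was 0.25, and without p53+/+ library 8 it was -0.55. The pseudogenes Cycs-ps2 and Cycs-ps3 are listed with 0 counts in every library.

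The initiator caspase of the apoptosome, Casp9 (ENSMUSG00000028914), was at 33.3 and 31.1 CPM in p53+/+ SI and at 27.2 and 26.7 CPM in p53-/- SI. It was the only one of the 8 genes with both p53-/- libraries below both p53+/+ libraries, and its 2 libraries agreed within 1.07-fold in either genotype. The log2 fold change was -0.26 (adjusted p = 0.504 in this edgeR test, standard error 0.168), with an interval of the fold from 0.625 to 1.12.

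Casp2 (ENSMUSG00000029863) encodes the initiator caspase activated on the PIDDosome, a second platform that responds to DNA damage and to surplus centrosomes. Its level was 34.0 and 34.8 CPM in p53+/+ SI and 36.3 and 38.8 CPM in p53-/- SI. Of the 8 genes it had the narrowest interval, with a log2 fold change of 0.12 (adjusted p = 0.743 in this edgeR test, standard error 0.156) and a fold between 0.831 and 1.43. The genotypes did not overlap, and their means differed 1.09-fold.

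Casp6 (ENSMUSG00000027997), whose product cleaves nuclear lamins, was at 12.6 and 13.6 CPM in p53+/+ SI and at 14.8 and 18.8 CPM in p53-/- SI. It had the highest log2 fold change of the 8 genes, 0.36 (adjusted p = 0.534 in this edgeR test, standard error 0.255). Library 10 was above the other 3 by more than these differed among each other. Without library 10 the log2 fold change was 0.23, and without library 9 it was 0.52.

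Xiap (ENSMUSG00000025860), the caspase inhibitor, was at 237 and 138 CPM in p53+/+ SI and at 174 and 139.7 CPM in p53-/- SI. As with Cycs, library 7 was the highest and library 8 the lowest, 1.72-fold apart. The log2 fold change was -0.25 (adjusted p = 0.728 in this edgeR test, standard error 0.302), with an interval of the fold from 0.496 to 1.42. It was 0.20 without library 7 and -0.60 without library 8.

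The genes of the XIAP antagonists did not differ past the threshold. Htra2 (ENSMUSG00000068329), a mitochondrial serine protease, was at 16.0 and 17.1 CPM in p53+/+ SI and at 18.7 and 17.5 CPM in p53-/- SI, with a log2 fold change of 0.12 (adjusted p = 0.823 in this edgeR test, standard error 0.218). That value was 0.07 without library 9 and 0.22 without library 10. Diablo (ENSMUSG00000029433) had the fewest counts of the 8 genes, 49 and 56 in p53+/+ SI and 63 and 71 in p53-/- SI. This was 3.03, 3.63, 2.76 and 3.53 CPM, with overlapping genotypes. Its log2 fold change of -0.08 (adjusted p = 0.946 in this edgeR test, standard error 0.424) had the widest interval of the 8, a fold between 0.452 and 1.97.

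Annotation bears on both antagonists. In GENCODE M21 (GRCm38), 40.9% of the exon bases of Diablo are shared with another gene, 19.3% with a gene on the same strand, the protein-coding Gm49027, which had 4, 32, 9 and 9 counts in libraries 7 to 10. Of Htra2, 43.7% of the exon bases are shared with Aup1 and Loxl3 on the opposite strand, which had at most 1865 and 84 counts in a library. Casp9 shares 1.81% with Cela2a and Ctrc, and the other 5 genes share none. Whether reads in shared exons were counted for Diablo or Htra2, for the neighbour or for neither is not given in the sources used here, so the levels of both are uncertain. The share of reads lost in this way was not tested.

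Per length of exon, the means of the 8 genes covered more than 2 orders of magnitude. The low end was Diablo, whose level is uncertain because of its shared exon bases. Cycs was the highest at 71.9 ± 26.9 CPM per kilobase of exon in p53+/+ SI and 62.3 ± 2.70 in p53-/- SI (SD, n = 2), at the 95.1st and 94.8th percentile of the genes tested. Xiap followed with 19.8 ± 7.38 and 16.6 ± 2.58, and Apaf1 with 9.44 ± 0.811 and 11.8 ± 1.69. In p53+/+ SI the next were Casp9 (6.20 ± 0.293), Htra2 (5.63 ± 0.264), Casp2 (4.88 ± 0.0868), Casp6 (2.34 ± 0.126) and Diablo (0.541 ± 0.0689). The ranges of neighbours in this order were separate in p53+/+ SI, if only by 5.99 against 5.81 for Casp9 and Htra2. In p53-/- SI, Htra2 and Casp2 stood above Casp9, and the ranges of Casp2 and Casp9 overlapped. As an alternative chosen after the overlaps were seen, the same CPM were divided by the exon length that no other gene shares. Htra2 was then at 9.999 ± 0.469 in p53+/+ SI and passed the mean of Apaf1, but their ranges overlapped. In p53-/- SI Htra2 was at 10.9 ± 0.517 and stayed below Apaf1 at 11.8 ± 1.69, also with overlapping ranges. Diablo was at 0.914 ± 0.117 in p53+/+ SI and remained the lowest in either genotype. No reads were left out, so these values are too high if reads in shared exons were counted for the gene. By the means of this alternative, the 8 genes covered less than 2 orders of magnitude in either genotype.

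**Figure D2:**
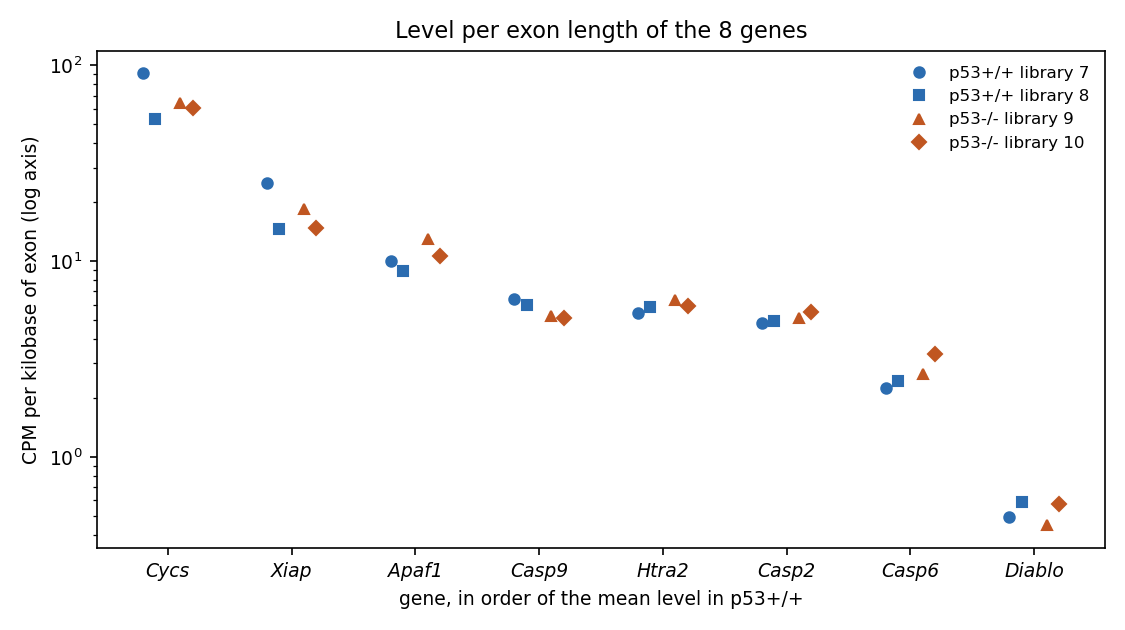
CPM per kilobase of exon (log axis) of the 8 genes in each of the 4 libraries, ordered by the mean level in p53+/+ SI. Cycs lay highest, between 52.9 and 90.9, and Diablo lowest, between 0.448 and 0.589, and the p53-/- ranges of Casp2 and Casp9 overlapped.

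Ratios within a library do not depend on how the libraries are scaled. The summed level per kilobase of the antagonists Diablo and Htra2 over that of Xiap was 0.237 and 0.440 in p53+/+ SI and 0.369 and 0.441 in p53-/- SI. The genotypes overlapped (p = 0.667 from a two-sided exact permutation test over the 4 libraries, which cannot go below 0.33). Most of this sum was Htra2, which alone gave 0.218 and 0.400 in p53+/+ SI and 0.344 and 0.402 in p53-/- SI. The following ratios were chosen after the values were seen and are given without a test. Apaf1 over Xiap was 0.401 and 0.609 in p53+/+ SI and 0.707 and 0.720 in p53-/- SI. Casp9 over Apaf1 was 0.640 and 0.676 in p53+/+ SI and 0.403 and 0.484 in p53-/- SI, and Cycs over Apaf1 was 9.09 and 5.97 against 4.94 and 5.69. In these ratios the genotypes did not overlap, for Cycs over Apaf1 only by 5.97 against 5.69. The p53-/- libraries held more Apaf1 relative to Xiap, Casp9 and Cycs. All 3 ratios contain Apaf1, so they are not separate results. For the levels of single genes, both p53-/- libraries lay above in 26.4% and below in 24.4% of all genes tested. The share among other ratios was not tested. Bax over Apaf1 was 7.82 and 7.70 in p53+/+ SI and 1.08 and 1.72 in p53-/- SI. The gene of the pore former thus stood well above that of the apoptosome scaffold per length in p53+/+ SI and near it in p53-/- SI.

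**Figure D3:**
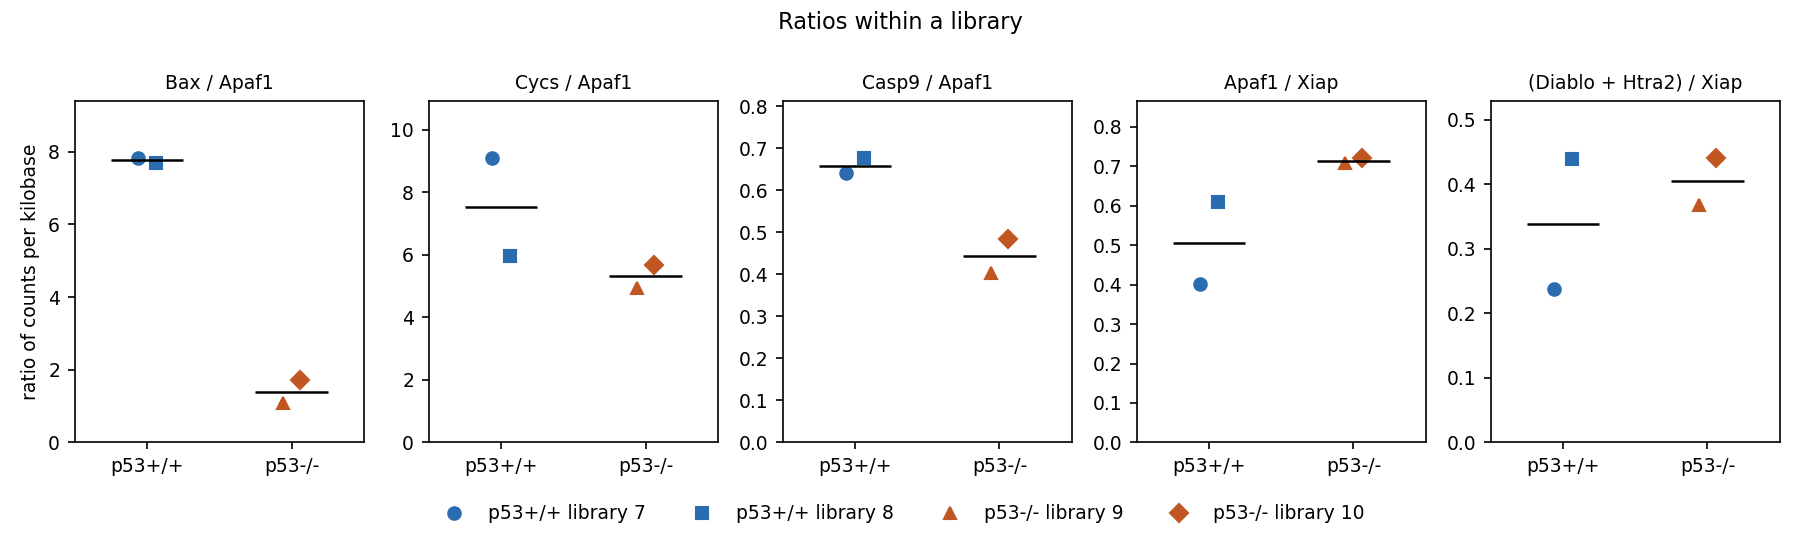
Ratios of counts per kilobase of exon within each library (vertical axis, from 0, a scale of its own in each panel), with 1 point per library and the mean of a genotype as a bar. Bax over Apaf1 separated the genotypes most, with 7.70 and 7.82 in p53+/+ SI and 1.08 and 1.72 in p53-/- SI, while the antagonists over Xiap overlapped.

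Around these genes, 46 genes of the intrinsic pathway were listed in 8 groups, and 44 had enough counts to be tested. Of these 44, 1 was lower and 0 were higher in p53-/- SI past the threshold, 22 had a log2 fold change above 0, and the median was -0.02. An unadjusted p under 0.05 was reached by 16 of the 44, beside 18% of all genes tested. DESeq2 called 8 of the 44, beside 8.93% of all genes, and the likelihood ratio test of edgeR 7, beside 8.05% of all genes. Bax, Bbc3, Casp4, Casp14, Birc5 and Xaf1 were called by both.

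The 1 gene past the threshold was Bax (ENSMUSG00000003873), whose product forms the pore through which cytochrome c leaves. It was at 123 and 107.5 CPM in p53+/+ SI and at 22.2 and 28.8 CPM in p53-/- SI, and fell with a log2 fold change of -2.18 (adjusted p = 0.0296 in this edgeR test, standard error 0.200). The adjusted p was 0.0754 without library 9 and 0.198 without library 10, with log2 fold changes of -2.01 and -2.33. The interval of its fold, 0.156 to 0.312, lay below that of every one of the 8 apoptosome genes, of which the lowest bound was 0.452. The group of cytochrome c release held 8 genes, 0 with a log2 fold change above 0, with a median of -0.54. Bbc3, the gene of PUMA, was at 33.1 and 39.1 CPM in p53+/+ SI and at 10.9 and 9.35 CPM in p53-/- SI (log2 fold change -1.83, adjusted p = 0.0501 from the same edgeR test). Bak1, the gene of the other pore former, was at 222 and 165 CPM against 179 and 169.7 CPM (log2 fold change -0.15). The guards against pore formation, Mcl1, Bcl2l1 and Bcl2, had log2 fold changes of -0.47, -0.62 and -0.33. Their adjusted p were 0.295, 0.225 and 0.675 from the same edgeR test, and the genotypes overlapped for Bcl2. DESeq2 called Mcl1 (adjusted p = 0.0297), and the likelihood ratio test of edgeR did not (adjusted p = 0.268).

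The promoters of 7 of the 8 genes, 9 in all, are in RefSeq's set for GRCm38.p6, from 250 bases before to 50 after a transcript's start. Apaf1 is shown as the scaffold, Cycs as its trigger and Bax as the 1 gene of the pathway past the threshold. Capitals mark CCAAT, read on either strand, and the p53 decamer consensus, of which a pair makes a full p53 response element. The Apaf1 promoter lies at chr10:91082694-91082993 (minus strand), that of Cycs at chr6:50566520-50566819 (minus strand) and that of Bax at chr7:45466849-45467148 (minus strand).
Apaf1: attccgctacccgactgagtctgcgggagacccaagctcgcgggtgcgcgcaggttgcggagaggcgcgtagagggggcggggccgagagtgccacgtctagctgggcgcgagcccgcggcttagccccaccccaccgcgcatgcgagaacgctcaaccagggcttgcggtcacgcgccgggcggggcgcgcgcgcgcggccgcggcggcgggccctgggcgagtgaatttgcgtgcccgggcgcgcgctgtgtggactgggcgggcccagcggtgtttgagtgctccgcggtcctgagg
Cycs: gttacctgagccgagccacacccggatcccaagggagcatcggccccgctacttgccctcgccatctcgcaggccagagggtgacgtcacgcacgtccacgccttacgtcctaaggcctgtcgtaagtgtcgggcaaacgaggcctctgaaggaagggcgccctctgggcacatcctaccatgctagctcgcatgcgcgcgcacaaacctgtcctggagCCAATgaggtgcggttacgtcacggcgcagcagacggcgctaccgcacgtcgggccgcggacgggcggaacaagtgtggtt
Bax: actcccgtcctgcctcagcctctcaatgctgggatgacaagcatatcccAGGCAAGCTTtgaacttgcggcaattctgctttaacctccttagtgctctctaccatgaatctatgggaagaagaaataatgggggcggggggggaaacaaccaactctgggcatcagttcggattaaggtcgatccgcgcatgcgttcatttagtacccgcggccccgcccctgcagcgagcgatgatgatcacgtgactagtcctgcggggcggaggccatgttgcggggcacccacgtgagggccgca
The p53 decamer consensus was found in 0 of the 9 promoters of the apoptosome genes and in 8.36% of the 32841 promoters of this length. In the Bax promoter it begins at position -201 from the start. That these letters are not in such a short window says nothing of p53 binding elsewhere at these genes. CCAAT was found in 3 of the 9 promoters (Cycs, Casp2 and Diablo) and in 37.4% of all, and TATAAA in 1 of the 9, the third promoter of Xiap, and in 13.6% of all. Of the 9, 6 had an observed over expected CG ratio of at least 0.6, as 35.8% of all promoters did, and Apaf1 had 46 CG pairs and 74.7% G and C.

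**Figure D4:**
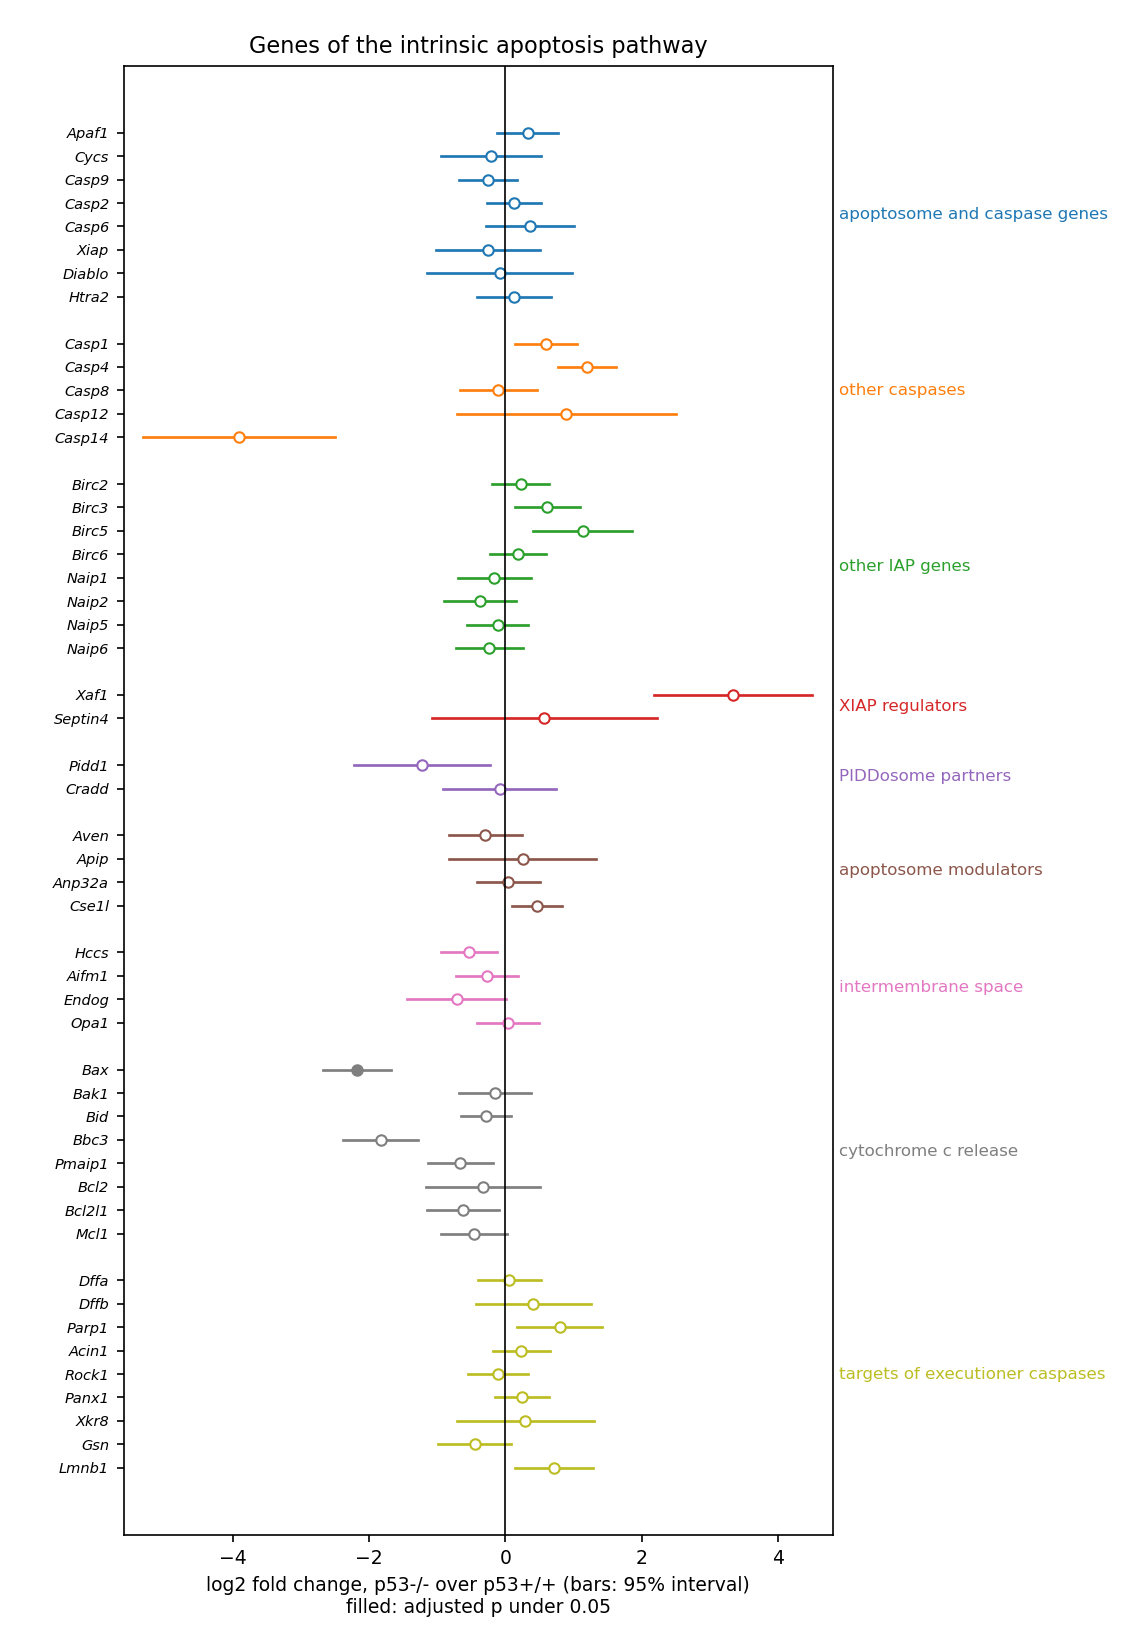
Log2 fold change, p53-/- over p53+/+ (horizontal axis), of the 8 apoptosome and caspase genes and of tested genes of the 8 other groups, with the 95% interval as a line. Filled points have an adjusted p under 0.05, which only Bax (-2.18) had, and the intervals of the 8 genes at the top all include 0.

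Of the 7 other caspase genes, 5 had a log2 fold change above 0 and 0 passed the threshold. Casp8, the initiator of the death receptor pathway, had a log2 fold change of -0.10. Of the caspases of inflammation, Casp1 was at 82.9 and 101.7 CPM in p53+/+ SI and 144.7 and 133.5 CPM in p53-/- SI, and Casp4 at 33.8 and 37.8 CPM against 88.8 and 75.1 CPM (log2 fold changes 0.59 and 1.19, adjusted p = 0.192 and 0.0592 from the same edgeR test). Casp14, the caspase of the cornified epidermis, had 169 and 79 counts in p53+/+ SI and 11 in either p53-/- library (log2 fold change -3.90, adjusted p = 0.0602 from the same edgeR test).

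Of the other IAP genes, the relatives of Xiap, 8 of 9 were tested, 4 had a log2 fold change above 0 and 0 passed the threshold. Birc7 was listed with 0 counts in every library. Birc5, the gene of survivin, which serves in mitosis, was at 21.9 and 14.1 CPM against 33.4 and 45.6 CPM (log2 fold change 1.13, adjusted p = 0.150 from the same edgeR test). The summed level of 6 proliferation markers was 316, 195, 495 and 567 CPM in libraries 7 to 10. Their log2 fold changes lay between 0.006 for Pcna, whose genotypes overlapped, and 1.57 for Top2a. Birc2 and Birc3, the ubiquitin ligases of TNF receptor signalling, had log2 fold changes of 0.22 and 0.62. The 4 Naip genes, near-identical paralogs among which reads could have been split, lay between -0.37 and -0.11.

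Xaf1, whose product binds XIAP and which is known as an interferon-induced gene, was at 2.91 and 7.33 CPM in p53+/+ SI and at 45.1 and 58.8 CPM in p53-/- SI. The genotypes were far apart (log2 fold change 3.34, standard error 0.464), yet the adjusted p was 0.0583 from the same edgeR test, above the threshold. The adjusted p was 0.0105 without library 7 and 0.00433 without library 8, and 0.0884 and 0.423 without library 9 or 10. Septin4, which encodes another XIAP binding protein, ARTS, was at 2.23 and 8.44 CPM against 6.62 and 9.20 CPM. Of the partners of caspase-2 on the PIDDosome, Pidd1, known as a p53-induced gene, was at 19.4 and 14.8 CPM in p53+/+ SI and at 9.60 and 5.02 CPM in p53-/- SI (log2 fold change -1.22, adjusted p = 0.211 from the same edgeR test). The adaptor Cradd was near 6 CPM in all 4 libraries (log2 fold change -0.09).

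The remaining groups held 0 genes past the threshold. The modulators of the apoptosome Aven, Apip, Anp32a and Cse1l had log2 fold changes between -0.29 and 0.46. Hccs, the enzyme that attaches heme to cytochrome c, was at 55.8 and 48.1 CPM in p53+/+ SI and at 37.6 and 34.2 CPM in p53-/- SI (log2 fold change -0.53, adjusted p = 0.192 from the same edgeR test), while its substrate Cycs overlapped between the genotypes. Other proteins of the intermembrane space, Aifm1, Endog and Opa1, had log2 fold changes of -0.27, -0.71 and 0.04, and the testis cytochrome c gene Cyct had 0 counts in p53+/+ SI and 6 and 4 in p53-/- SI. Of the 9 targets of executioner caspases, 7 had a log2 fold change above 0, with a median of 0.24 and Parp1 the highest at 0.79. The genes Dffa and Dffb, which act in DNA fragmentation, had 0.06 and 0.41.

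The genes whose pattern was most like that of Apaf1 over the 4 libraries were sought among 9381 protein-coding genes with a mean log2 CPM of at least 3. By the distance between log2 CPM values centred on their mean, the nearest were Zfp952 (0.0286), Gpsm2 (0.0308) and Sprr2a1 (0.0419), beside a median distance of 0.601. Their log2 fold changes were 0.35, 0.34 and 0.34. With 9381 candidates and only 4 libraries some close matches are likely for any gene, and shared regulation was not tested. Among the 8 genes the nearest to Apaf1 was Htra2 at 0.307 and the farthest Xiap at 0.681. Reads of Sprr2a1 could have been split among close paralogs.

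Levels of cell type markers also differed between the same libraries, and of all the markers listed 1 passed the threshold, the adipocyte gene Cfd, with 175 and 244 counts in p53+/+ SI and 0 and 1 in p53-/- SI. All 7 markers of the SI epithelium were present, with a summed level of 20340 and 14560 CPM in libraries 7 and 8 and 13940 and 11370 CPM in libraries 9 and 10, and 0 of the 7 had a log2 fold change above 0. Library 7, the highest in Cycs and Xiap, was also the highest in these markers. Library 8, the lowest in Cycs and Xiap, was above libraries 9 and 10 in these markers. The 6 enterocyte markers summed to 14930 and 12080 CPM against 8105 and 7901 CPM, and the 4 stem cell markers to 99.0 and 76.2 CPM against 547 and 593 CPM. Most of the stem cell sum in p53-/- SI was Olfm4, at 47.6 and 16.0 CPM against 473 and 525 CPM. Of the other 3, Lgr5 and Smoc2 had log2 fold changes of 0.67 and 0.47, and Ascl2 had -0.82. All 7 T cell markers had a log2 fold change above 0, from 7.43 and 13.6 CPM in sum to 62.6 and 119.8 CPM. The 5 B cell markers, of which 4 were tested, summed to 1.11 and 1.82 CPM in p53+/+ SI and to 20.3 and 385 CPM in p53-/- SI. The 5 macrophage markers summed to 40.7, 126, 153 and 219.5 CPM in libraries 7 to 10, and the 5 red blood cell markers, of which 2 were tested, to at most 5.97 CPM. The 4 smooth muscle markers stood at 3663 CPM in library 8 and between 393 and 853 CPM in the others. The 4 adipocyte markers, of which 3 were tested, were at 15.5 and 22.8 CPM in p53+/+ SI and at most 0.199 CPM in p53-/- SI, where Plin1 was at 0 counts. The part of cell composition in the levels of the 8 genes was not tested.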

How the data were processed

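The table that the authors deposited holds unnormalized read counts for each gene in 4 SI libraries, 2 per genotype. The processing notes of the submitters name fastp, HISAT2 2.0.5, featureCounts 1.5.0-p3 and DESeq2 1.20.0, and the protocol describes poly-T selection. Genome build, annotation and strand setting are not given in the sources used here. The columns carry the genotype but not the replicate number of the labels, and nothing beyond the study's statement on biological replicates says that the libraries are separate animals, so p-values measure the spread between these libraries.

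Library sizes were scaled by TMM, low counts were removed by filterByExpr, and 16094 genes were tested, two-sided, with the quasi-likelihood test of edgeR 4.0.16 in R 4.3.3 and Benjamini-Hochberg adjustment (threshold 0.05). Only the quasi-likelihood step of edgeR was tested on simulated data. Some listed genes are included in counts and sums but are not reported here by name. The intervals of 95% come from the same fit. DESeq2 1.42.0 without independent filtering, the likelihood ratio test, other scalings, other filters and each library left out were alternatives. Leaving out Rn18s-rs5, and leaving shared exon bases out of the exon length, were added after the data were seen. Log2 CPM used a prior count of 2. Exon lengths and overlaps came from GENCODE M21, which holds 91.8% of the deposited identifiers. The genes, the lists and the rules for naming genes (the 8 genes, the listed groups and the 3 genes most like Apaf1) were chosen with earlier results of these data known.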

Additional observations from a re-analysis of the deposited data

How the results depend on the processing

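No member passed the threshold under any of the 12 alternatives (0 at an unadjusted p under 0.05 in each, by edgeR and by DESeq2), and the adjusted p-values of the 8 genes lay between 0.200 and 0.993. Apaf1, Casp6, Casp9, Casp2 and Htra2 kept their direction throughout. When 1 library at a time was dropped, the log2 fold change lay between -0.55 and 0.25 for Cycs (higher only without p53+/+ library 7), between -0.60 and 0.20 for Xiap (higher only without library 7) and between -0.221 and 0.0791 for Diablo (higher without p53+/+ library 8 or p53-/- library 9). The median of the 8 genes was 0.0682 with upper-quartile factors, 0.0814 with library sizes only, 0.0601 without a filter, 0.0871 with at least 10 counts in every library, 0.0604 without Rn18s-rs5, and between 0.0435 and 0.156 with 1 library left out. The median of all genes was 0.15 without a filter and moved by under 0.1 otherwise.

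Calls over all genes depended on the test and the filter. Against 48 higher and 31 lower genes there were 794 and 643 with DESeq2, 833 and 462 with the likelihood ratio test, 1433 and 761 without a filter, 29 and 20 with upper-quartile factors, 26 and 20 with library sizes only, 24 and 18 with at least 10 counts in every library, and from 0 to 680 higher and from 0 to 344 lower with 1 library left out. The counts of 0 were those without p53-/- library 10, where 1201 genes had an unadjusted p under 0.05 in edgeR. Of the pathway lists, 8 genes were called by DESeq2, 7 by the likelihood ratio test, 13 without a filter and from 0 to 6 with 1 library left out, against 1. The causes were not tested. With 2 libraries per genotype, 1 left out leaves a lone library, which is assumed to vary like the others. No paired analysis was possible because the columns carry no replicate number of the labels. Diablo had the fewest counts of the 8 genes, 49 to 71 per library.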
